A study of Homo sapiens with 9 samples.

Results

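CDK12 and CDK13 are 2 of the 763 genes targeted by a kinome knockout library that was carried through an antifolate screen in RH4 cells, and they are a pair of related kinases that act in transcription. Every library row annotated to either gene was taken, which gave 8 of the 3152 single guide RNAs (sgRNAs), 4 for each gene. In file order they are called sgRNA 1 to sgRNA 4 here, numbers 2237 to 2240 of the library for CDK12 and 1585 to 1588 for CDK13. RH4 is a human rhabdomyosarcoma cell line that carries the PAX3::FOXO1 fusion, and all 9 libraries came from this 1 line bearing the same pooled lentiviral sgRNA library, introduced with Cas9 at a coverage of 1000 and selected with puromycin (0.25 µg/ml for 72 h). Cells grown for 10 days in 1.5 nM pralatrexate, an inhibitor of dihydrofolate reductase, were compared with cells grown for 10 days in vehicle, and both with baseline cells taken right after selection, at 3 libraries per group. The day 10 cells also had 72 h of recovery before treatment, and the study's text and methods give different selection times, so the span from baseline to day 10 is uncertain. The labels call the libraries repeats, and the study describes them as parallel cultures in one place and as technical replicates in another, so their spread may be technical. Only sgRNA cassettes were sequenced from genomic DNA, so the cell type could not be checked against markers, and the reads of an sgRNA stand for the cells that carried it.

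CDK12 and CDK13 are paralogous kinases that each bind cyclin K and phosphorylate the C-terminal tail of RNA polymerase II while genes are being transcribed. CDK12 is best known for keeping long genes, among them several of DNA repair, transcribed to their full length. The pair is described as partly redundant, since many transcripts are lost only when both kinases are inhibited. In a pooled knockout screen, sgRNAs that slow cell growth become rarer over time and sgRNAs that give cells an advantage become more common.

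In GRCh38, CDK12 (ENSG00000167258) spans chromosome 17, 39461486 to 39567559, and CDK13 (ENSG00000065883) spans chromosome 7, 39950121 to 40099580, each on the plus strand with 14 coding exons in its main GENCODE v44 transcript. The library sequences of the 8 sgRNAs were not among the files used here, so cut sites could not be placed. How far any guide to one gene could pair with the other was therefore read from the reference itself. The coding exons of CDK12 held 649 sites of 20 bases followed by an NGG motif, the sequence that Cas9 needs beside its target, and those of CDK13 held 658. No site was identical in both genes. Of the 649 CDK12 sites, 3 had a CDK13 site with 1 mismatch, 14 had one with at most 2 and 23 had one with at most 3, whereas 225 had one with at most 7. The longest run shared by the spliced coding sequences was 25 bases. The 3 closest pairs are shown because they mark the upper limit of likeness between target sites of the 2 genes. They are reference sequences and are not known to be library guides. Capitals mark the base that differs, positions count from 1 at the 5′ end of the site, and the last 3 bases are the motif.

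CDK12, chr17:39494673-39494695, plus strand: Ctggatttcaagaaggacaaagg
CDK13, chr7:40002010-40002032, plus strand: Ttggatttcaagaaggacaaagg
CDK12, chr17:39517492-39517514, minus strand: ggtttcatggtgttgaaGtaggg
CDK13, chr7:40078057-40078079, minus strand: ggtttcatggtgttgaaAtatgg
CDK12, chr17:39517505-39517527, minus strand: atattgcttcttCggtttcatgg
CDK13, chr7:40078070-40078092, minus strand: atattgcttcttTggtttcatgg

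The differences, with the CDK12 base first, are C1T in the first pair, G18A in the second and C13T in the third. In the second pair 1 base of the motif differs as well, so that this pair differs at 2 of 23 bases.

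The 9 libraries held 2468136 to 4227230 reads with pralatrexate, 3194504 to 4602712 with vehicle and 3483100 to 4431337 at baseline. All 8 sgRNAs of the pair passed the filter on few reads, with 248 reads as the lowest count of any of them in any library. Levels are given as CPM, read counts scaled to a common library size after TMM scaling, and as the mean log2(CPM + 0.5) of the 4 sgRNAs for a gene. The pair was chosen by the fold changes of these same comparisons, so its own values are described with no test, and standard errors (SE) refer to the spread over libraries.

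CDK12 sgRNAs were the least abundant with pralatrexate, intermediate with vehicle and the most abundant at baseline. The gene level on the log2 scale was 7.58, 7.75 and 7.08 in pralatrexate libraries 1 to 3, 8.17, 8.23 and 8.04 in vehicle libraries and 8.72, 8.67 and 8.66 at baseline. None of the 3 groups overlapped another. Pralatrexate library 3 was the lowest of the 9, and the spread was widest with pralatrexate, at 7.47 ± 0.35, against 8.15 ± 0.09 with vehicle and 8.69 ± 0.03 at baseline (SD, n = 3 each). CDK13 sgRNAs stood at a high level in both day 10 groups. Their gene level was 9.20, 9.23 and 9.11 with pralatrexate, 9.15, 9.35 and 9.24 with vehicle and 8.34, 8.29 and 8.40 at baseline. The day 10 groups overlapped each other, at 9.18 ± 0.06 with pralatrexate and 9.25 ± 0.10 with vehicle, and neither reached down to baseline, at 8.34 ± 0.05 (SD, n = 3 each). Non-targeting sgRNAs, which have no target in the genome, had a median level of 8.65 ± 0.02 with pralatrexate, 8.66 ± 0.04 with vehicle and 8.32 ± 0.02 at baseline (SD, n = 3 each).

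**Figure D1:**
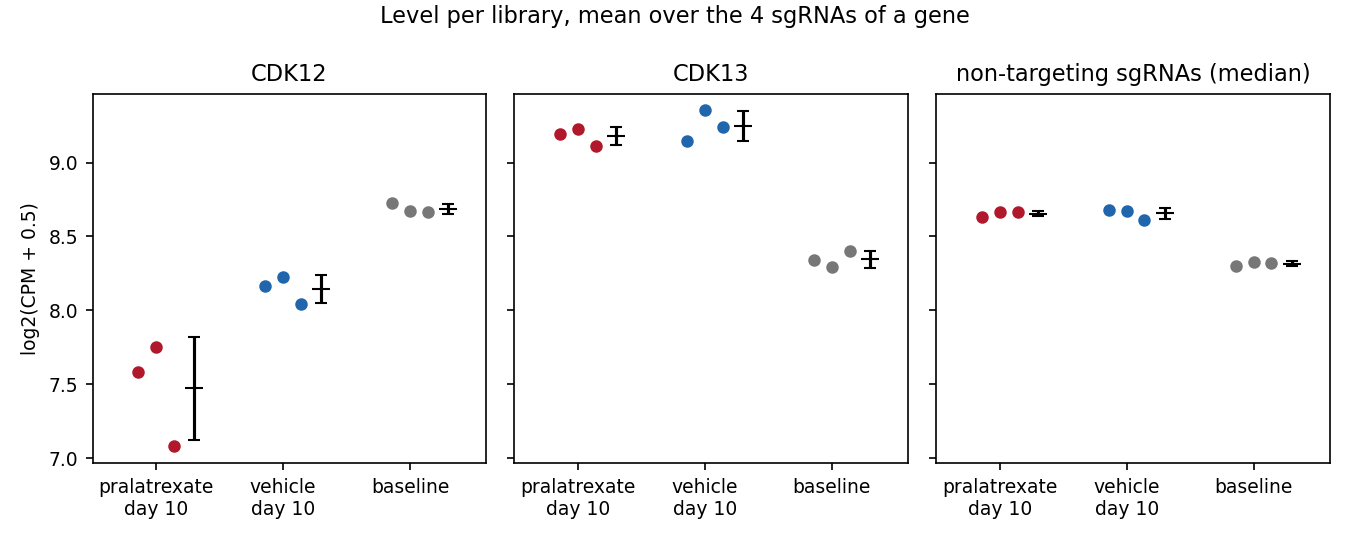
Level of CDK12, CDK13 and the non-targeting sgRNAs in the 9 libraries, as log2(CPM + 0.5) on the vertical axis and by group on the horizontal axis (points, libraries; bars, mean and SD of 3). CDK12 averages 7.47 with pralatrexate, 8.15 with vehicle and 8.69 at baseline, while CDK13 averages 9.18, 9.25 and 8.34.

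Each of the 4 CDK12 sgRNAs was below baseline at day 10. sgRNA 3 was the most depleted. It had 250, 331 and 364 reads in the pralatrexate libraries, 505, 989 and 782 in the vehicle libraries and 1449, 1560 and 1188 at baseline. Scaled, these were 67.2, 134 and 85.5 CPM with pralatrexate, 157, 215 and 177 CPM with vehicle and 358, 356 and 345 CPM at baseline. The 3 groups were fully separate. sgRNA 4 had 206, 147 and 88.3 CPM with pralatrexate, 255, 225 and 194 CPM with vehicle and 326, 346 and 374 CPM at baseline. Here pralatrexate library 1 lay above vehicle library 3, so the day 10 groups overlapped for this sgRNA, the only one of the CDK12 guides for which they did.

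The other CDK12 sgRNAs were less depleted. sgRNA 1 had 241, 277 and 150 CPM with pralatrexate, 398, 356 and 301 CPM with vehicle and 477, 423 and 433 CPM at baseline. sgRNA 2, the least depleted, had 401, 395 and 292 CPM with pralatrexate, 425, 468 and 464 CPM with vehicle and 572, 527 and 482 CPM at baseline. The 3 groups were separate for each of these sgRNAs, with pralatrexate library 3 the lowest in each.

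The CDK13 sgRNAs differed widely in abundance, and all 4 were more abundant at day 10 than at baseline. sgRNA 2 was the most abundant of all 3152 sgRNAs in each of the 6 day 10 libraries, whereas at baseline it ranked 18, 27 and 10. Its reads numbered 5472, 3722 and 6336 with pralatrexate, 4804, 7307 and 7163 with vehicle and 3105, 3161 and 2908 at baseline. Every other sgRNA of the pair was lower in each library. In CPM this was 1470, 1503 and 1487 with pralatrexate, 1490, 1588 and 1624 with vehicle and 768, 722 and 845 at baseline. sgRNA 1 was the rarest of the gene and ranked between 3096 and 3102 of 3152 at baseline. It had 144, 136 and 125 CPM with pralatrexate, 126, 163 and 148 CPM with vehicle and 74.9, 72.2 and 72.0 CPM at baseline. The other sgRNAs lay between these. sgRNA 3 had 915, 935 and 828 CPM with pralatrexate, 807, 1005 and 758 CPM with vehicle and 486, 428 and 461 CPM at baseline. sgRNA 4 had 608, 677 and 602 CPM with pralatrexate, 680, 701 and 730 CPM with vehicle and 393, 428 and 460 CPM at baseline. For all 4 sgRNAs every day 10 library lay above every baseline library. Of all sgRNAs, 15.9% lay wholly above baseline with vehicle and 16.5% with pralatrexate. Only for sgRNA 4 were the pralatrexate libraries separate from, and below, the vehicle libraries, as they were for 4.61% of all sgRNAs.

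**Figure D2:**
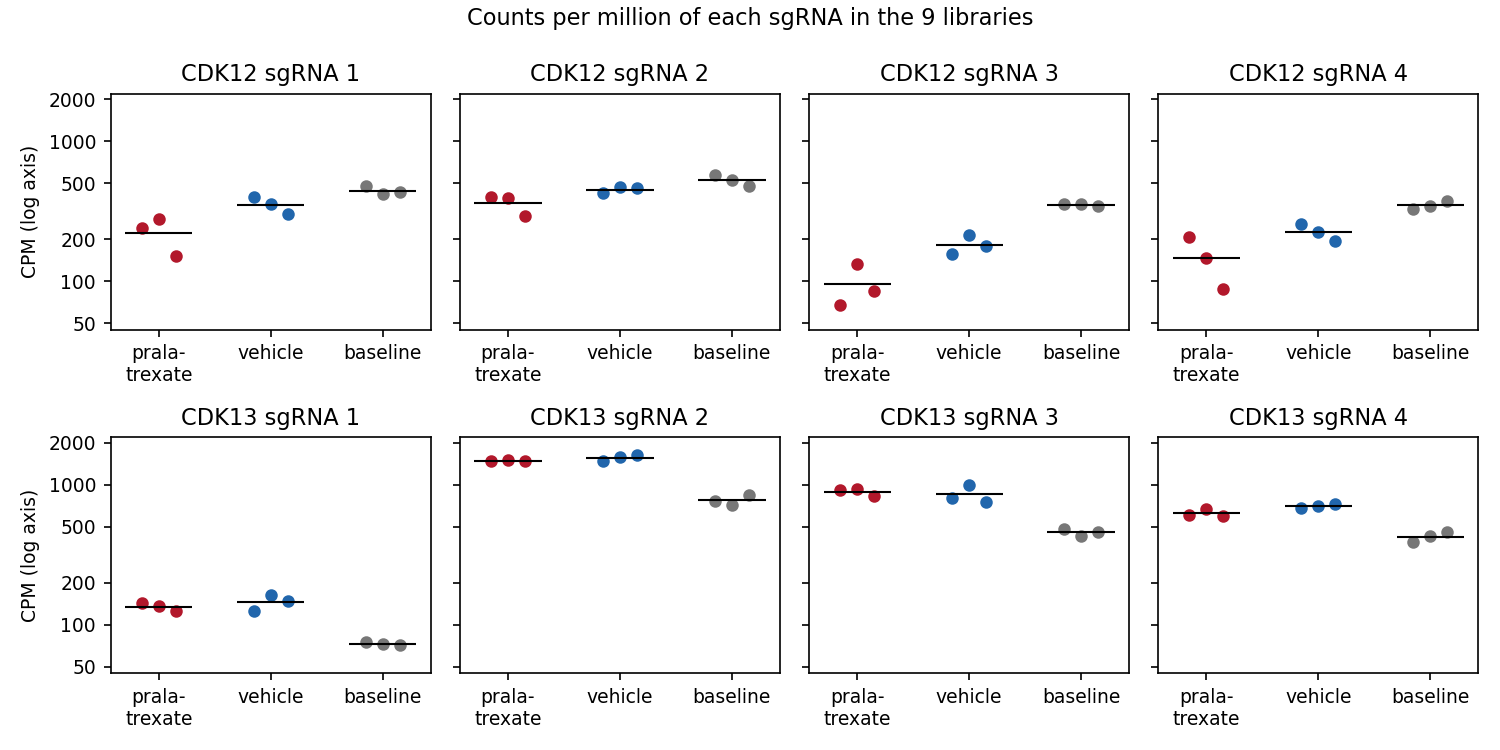
CPM (logarithmic vertical axis) of the 8 sgRNAs in the 9 libraries by group (points, libraries; lines, means of 3). Of the CDK12 sgRNAs, sgRNA 3 shows the widest steps, with means of 95.4, 183 and 353 CPM for pralatrexate, vehicle and baseline, and CDK13 sgRNA 2 the highest levels, with means of 1487, 1567 and 778 CPM.

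The comparison of pralatrexate with vehicle asked which knockouts became rarer or more common with the drug than without it. CDK12 stood at a fitted log2 fold change of −0.64 ± 0.21 (SE, n = 3 and 3 libraries), or 0.643 of vehicle, and CDK13 at −0.07 ± 0.07, or 0.951 of vehicle. CDK12 had the lowest value of the 763 genes, and CDK13 ranked 146 from the lowest. Pralatrexate library 3 weighed most in the CDK12 value, since without it CDK12 stood at −0.46 and ranked 2. The rank of CDK13 was not stable, at 72 without vehicle 1, 304 without vehicle 2 and 265 without pralatrexate 3. All 4 CDK12 sgRNAs were lower with pralatrexate, at −0.67 ± 0.29, −0.32 ± 0.16, −0.95 ± 0.32 and −0.61 ± 0.37 for sgRNA 1 to sgRNA 4 (SE). The pralatrexate libraries lay wholly below the vehicle libraries for 3 of these 4 sgRNAs, and for 4.61% of all sgRNAs tested. The CDK13 sgRNAs lay on both sides of 0, at −0.11 ± 0.12, −0.08 ± 0.04, 0.06 ± 0.13 and −0.16 ± 0.06 (SE), with 1 of 4 wholly below vehicle and none wholly above, where 4.36% of all sgRNAs lay. Of 99 non-targeting sgRNAs, which ran from −0.43 to 0.47 with a median of −0.00, 1 was below CDK12 sgRNA 2 and none was below the other 3 CDK12 sgRNAs, while 14 to 68 were below the CDK13 sgRNAs. Taken as genes, CDK12 had pralatrexate libraries wholly below vehicle, as did 3.41% of all genes, and CDK13 overlapped, while 3.67% of all genes lay wholly above.

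Day 10 libraries with the same number deviated together weakly (correlations of 0.175 to 0.198 over all sgRNAs), and their ratios were taken library by library. The log2 ratio of pralatrexate to vehicle for CDK12 was −0.58, −0.48 and −0.96 in numbers 1, 2 and 3. Each CDK12 sgRNA was also below 0 in each number. The smallest decreases were those of sgRNA 2, at −0.08, −0.25 and −0.67. The pair was chosen by the fold changes of these same libraries, so these signs are no further evidence. For CDK13 the gene ratios were 0.05, −0.12 and −0.13, on both sides of 0, and the non-targeting median was −0.05, −0.03 and 0.02. The mean ratio was −0.67 ± 0.26 for CDK12 and −0.07 ± 0.10 for CDK13 (SD, n = 3). The SEs of the fitted fold changes do not use this pairing. Number 3 gave the largest decrease for 3 of the 4 CDK12 sgRNAs and number 1 for sgRNA 3, at −1.22.

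The comparison of vehicle with baseline asked how the same knockouts fared without drug, and here the pair lay on opposite sides. CDK13 stood at 0.91 ± 0.07 (SE, n = 3 and 3 libraries), or 1.88 times baseline, the highest value of the 763 genes, and CDK12 at −0.54 ± 0.06, or 0.690 of baseline, which ranked 79 from the lowest. The CDK13 sgRNAs stood at 0.99 ± 0.11, 1.01 ± 0.08, 0.90 ± 0.13 and 0.72 ± 0.07 (SE), and from the highest of all 3145 sgRNAs tested, sgRNA 2 ranked 1, sgRNA 1 ranked 2, sgRNA 3 ranked 3 and sgRNA 4 ranked 9. The CDK12 sgRNAs stood at −0.34 ± 0.13, −0.22 ± 0.08, −0.95 ± 0.13 and −0.64 ± 0.13 (SE). All 4 CDK13 sgRNAs had vehicle libraries wholly above baseline, as did 15.9% of all sgRNAs, and all 4 CDK12 sgRNAs had them wholly below, as did 19.6%. Taken as genes the shares of all genes with separate libraries were 19.5% above and 24.4% below. Non-targeting sgRNAs had themselves a median of 0.31 in this comparison, with a range from −0.05 to 0.67. Relative to that median CDK13 stood at 0.59 and CDK12 at −0.85. No non-targeting sgRNA was above any CDK13 sgRNA, and none was below any CDK12 sgRNA.

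Pralatrexate against baseline adds up both steps and shares its libraries with the other 2 comparisons, so its values stand beside theirs and are no further evidence. CDK12 was at −1.17 ± 0.20 (SE, n = 3 and 3 libraries), or 0.443 of baseline and rank 47 from the lowest, with sgRNAs at −1.005, −0.54, −1.90 and −1.25. CDK13 was at 0.83 ± 0.05, or 1.78 times baseline and again the highest of the 763 genes, with sgRNAs at 0.88, 0.93, 0.96 and 0.56. All 8 sgRNAs had separate libraries, 4 below baseline, as did 19.4% of all sgRNAs, and 4 above it, as did 16.5%. Taken as genes the shares were 25.6% below and 20.3% above. CDK13 sgRNA 4 was the lowest of its gene in each comparison, and here 5 of 99 non-targeting sgRNAs lay above it.

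**Figure D3:**
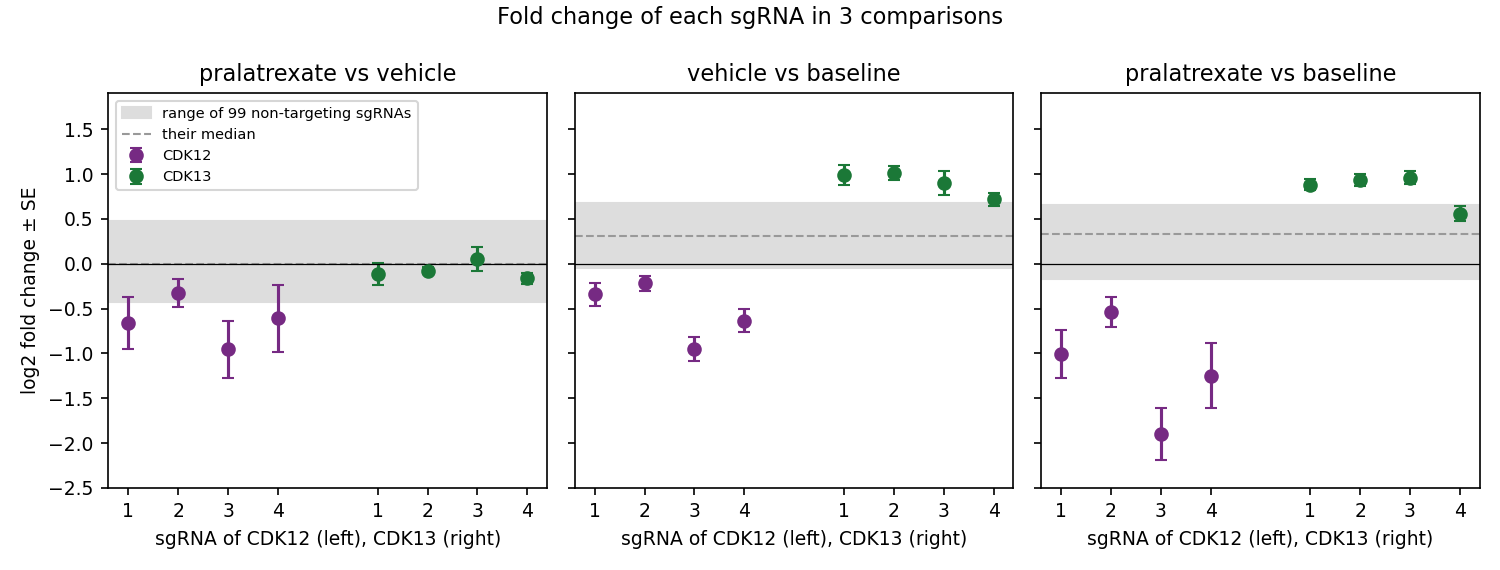
Log2 fold change (vertical axis) of each of the 8 sgRNAs, numbered on the horizontal axis, in the 3 comparisons, with the SE over libraries (bars), the range of 99 non-targeting sgRNAs (grey) and their median (dashed). CDK12 sgRNA 3 is the lowest in each panel, at −0.95, −0.95 and −1.90, and the CDK13 sgRNAs lie above the grey band in the comparisons with baseline, except sgRNA 4 for pralatrexate against baseline, at 0.56.

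The sgRNAs of CDK12 spread more than those of CDK13. Over its 4 sgRNAs the SD of the log2 fold change was 0.26 for CDK12 and 0.09 for CDK13 with pralatrexate against vehicle, and 0.33 and 0.13 with vehicle against baseline. Ordered from the smallest SD, CDK12 ranked 691 and 629 of 763 genes in these comparisons and CDK13 ranked 180 and 197. Within CDK12 the order of the guides was the same with vehicle against baseline and with pralatrexate against baseline, from sgRNA 3 through sgRNA 4 and sgRNA 1 to sgRNA 2. These comparisons share the baseline libraries.

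**Figure D4:**
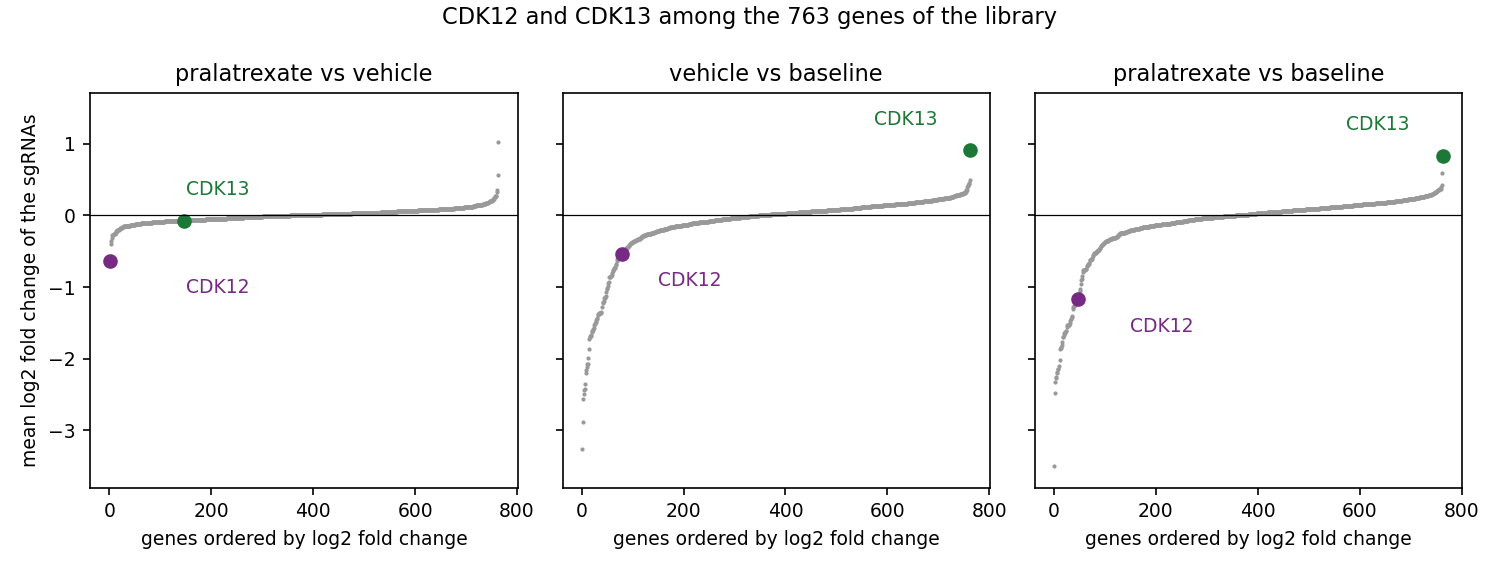
Mean log2 fold change of the sgRNAs of each gene (vertical axis), with genes in order of that value (horizontal axis), in the 3 comparisons, and CDK12 and CDK13 marked. CDK12 is the lowest gene for pralatrexate against vehicle (−0.64), and CDK13 the highest for vehicle (0.91) and for pralatrexate (0.83) against baseline.

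A ratio of the reads of the 2 genes within a library needs no scaling between libraries. CDK12 had 3408, 2358 and 2623 reads over its 4 sgRNAs with pralatrexate, where CDK13 had 11678, 8052 and 12959. With vehicle CDK12 had 3982, 5815 and 5009 reads and CDK13 10005, 15908 and 14377. At baseline the numbers were nearly equal in libraries 1 and 2, with 7009 and 7230 reads for CDK12 and 6961 and 7222 for CDK13, and in library 3 they were 5629 and 6327. CDK12 reads per CDK13 read thus numbered 0.292, 0.293 and 0.202 with pralatrexate, 0.398, 0.366 and 0.348 with vehicle and 1.007, 1.001 and 0.890 at baseline. The groups did not overlap, with means of 0.262 ± 0.052, 0.371 ± 0.025 and 0.966 ± 0.066 (SD, n = 3 each). On the fitted log2 scale the fold change of CDK12 minus that of CDK13 was −0.56 ± 0.18 for pralatrexate against vehicle and −1.44 ± 0.07 for vehicle against baseline, and it reached −2.01 ± 0.17 for pralatrexate against baseline (SE).

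**Figure D5:**
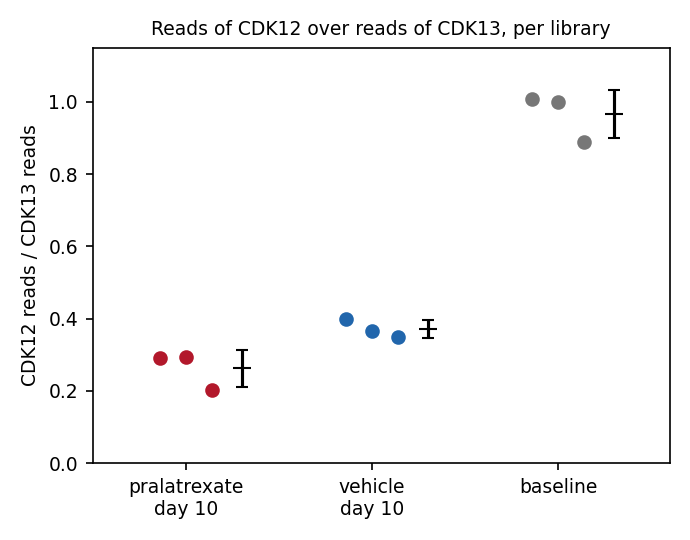
Reads of the 4 CDK12 sgRNAs divided by reads of the 4 CDK13 sgRNAs (vertical axis, from 0) in each library by group (points, libraries; bars, mean and SD of 3). The ratio averages 0.262 with pralatrexate, 0.371 with vehicle and 0.966 at baseline, and no 2 groups overlap.

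The genes whose level over the 9 libraries was most like that of CDK12 were STK38L, an NDR-family kinase (Pearson r = 0.946), TAF9, a subunit of the TFIID and SAGA transcription complexes (r = 0.931), CLK2, a kinase of splicing factors (r = 0.905), MPP2, a membrane scaffold protein (r = 0.904), and NADK, which makes NADP from NAD (r = 0.893). Their log2 fold changes for pralatrexate against vehicle were −0.10, −0.36, −0.17, −0.15 and −0.59, in the same order. TAF9 and NADK fell by the test across all genes (rank aggregation of edgeR p-values, false discovery rate, FDR, 0.00178 and 0.00409), as did 0.524% of all genes. The genes named here were picked by likeness to CDK12, itself rarest with pralatrexate, so falls among them cannot be weighed against that share. TAF9 lost its call without vehicle 2 or 3 or pralatrexate 2 or 3 (FDR 0.0639 to 0.168), and NADK without vehicle 2 (FDR 0.0573) or pralatrexate 2 (FDR 0.0594). Most like CDK13 were PHKG1, a catalytic subunit of phosphorylase kinase (r = 0.971), XYLB, a xylulokinase (r = 0.968), SGK1, a serum-induced kinase (r = 0.948), TRIB2, a pseudokinase (r = 0.947), and BTK, a lymphoid tyrosine kinase (r = 0.946). For vehicle against baseline these stood at 0.28, 0.19, 0.22, 0.41 and 0.21, each below the 0.91 of CDK13, and none passed the test (smallest FDR 0.126). Between CDK12 and CDK13 r was −0.716. These correlations describe 9 libraries that share 3 groups and 1 scaling. In them any gene that differs between baseline and day 10, or between pralatrexate and vehicle, correlates with others that do.

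How many genes of a list are called depends on the rule, so the shares of all 763 genes come first. By rank aggregation of edgeR p-values, 0.524% of genes fell and 0% rose for pralatrexate against vehicle, 6.68% and 0.393% for vehicle against baseline, and 7.21% and 0.262% for pralatrexate against baseline. With DESeq2 p-values in the same aggregation the shares were 0.524% and 0%, 7.34% and 0.131%, and 7.08% and 0.262%. By edgeR on reads summed per gene they were 0.786% and 0.131%, 21% and 14.4%, and 22.8% and 16.1%, so this rule called far more genes against baseline. At an unadjusted p under 0.05 in the rank aggregation they were 3.93% and 5.37%, 15.1% and 7.86%, and 14.8% and 8.78%.

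The library held 6 transcriptional CDKs besides the pair. CDK9, which releases paused polymerase, was the only one of these 6 to pass the rank aggregation for vehicle against baseline, at −2.89 ± 1.36 (SD, 4 sgRNAs; edgeR with rank aggregation, FDR 0.00735), where 6.68% of all genes fell. By edgeR on summed reads 2 of the 6 were lower and 1 was higher, beside 21% and 14.4% of all genes. CDK7, the kinase of TFIIH, was at −1.61 ± 1.52 and did not pass the rank aggregation (FDR 0.198). CDK19 of the Mediator kinase module was at 0.09, CDK10 at −0.00, and the near-identical CDK11A and CDK11B, whose guides may not tell the copies apart, at 0.15 and −0.24. For pralatrexate against vehicle none of the 6 passed in the rank aggregation, in edgeR on summed reads or with DESeq2 p-values. At an unadjusted p under 0.05 there were 1 lower and 2 higher of the 6, where 3.93% of all genes were lower and 5.37% higher. CDK9 had the highest value of the 763 genes there, at 1.03 ± 1.45 (SD, 4 sgRNAs; FDR 0.730), CDK19 at 0.15, CDK11A at 0.03, CDK7 at −0.06, CDK11B at −0.07 and CDK10 at −0.15. The CDK9 value rests on scarce guides, with gene levels of 5.67, 4.48 and 5.14 with pralatrexate and 4.83, 4.20 and 4.17 with vehicle. The non-targeting medians were 8.65 and 8.66 in these groups. The median of the 6 was −0.02, beside 0.01 for all genes. For pralatrexate against baseline CDK9 again was the only one to pass the rank aggregation, at −1.86 (FDR 0.015), where 7.21% of all genes fell. There edgeR on summed reads called 3 of the 6 lower and 2 higher, beside 22.8% and 16.1% of all genes.

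Of 5 partners of the transcription kinases in the library, 4 fell with vehicle against baseline by rank aggregation, where 6.68% of all genes did. Among them were TRRAP, a scaffold of histone acetyltransferases, at −2.56, TAF1, the largest TFIID subunit, at −1.68, and GTF2H1, a TFIIH subunit, at −1.35 (FDR 0.00333 to 0.00792). TAF9 was at −0.09 there, and of the 5 it alone fell with pralatrexate against vehicle, at −0.36 ± 0.27 with 3 of 4 sgRNAs lower (SD, 4 sgRNAs; edgeR with rank aggregation, FDR 0.00178), where 0.524% of all genes did. This is the call that 4 of the 9 fits without a library lost. For pralatrexate against baseline 4 of the 5 fell, TRRAP, TAF1 and GTF2H1 again among them, where 7.21% of all genes did. By edgeR on summed reads 4 of 5 were lower for vehicle and 5 for pralatrexate against baseline, beside 21% and 22.8% of all genes. For pralatrexate against vehicle 1 of the 5 was lower by this rule, beside 0.786% of all genes. Cyclin K itself was not analysed here.

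Other CDKs, RNA processing kinases and DNA damage response genes had calls in the comparisons with baseline. For vehicle against baseline, where 6.68% of all genes fell by rank aggregation, 3 of 12 other CDKs fell (CDK1 at −3.25, CDK6 at −1.45 and CDK2 at −0.74), as did 4 of 14 RNA processing kinases (among them CLP1 at −2.35, RIOK1 at −1.44 and PRPF4B at −1.36) and 8 of 20 DNA damage response genes. The last were CDC7, CHEK1, TP53RK, HUS1, PKMYT1, TLK2, SMG1 and ATR, from −2.49 for CDC7 to −0.85 for ATR, the apical kinase of replication stress, whose own transcription is known to depend on CDK12. ATR lost its call without vehicle 1 (FDR 0.0571). Medians were 0.01, −0.27 and −0.54 for these lists, beside 0.02 for all genes. By edgeR on summed reads, which called 21% of all genes lower and 14.4% higher, 4 other CDKs, 7 RNA processing kinases and 14 DNA damage response genes were lower, and 1, 1 and 0 were higher. For pralatrexate against baseline 3, 3 and 7 genes of these lists fell by rank aggregation, where 7.21% of all genes did, and 5, 7 and 15 were lower and 1, 1 and 0 higher by edgeR on summed reads. CDK2 lost its rank aggregation call there without baseline 3 (FDR 0.0763). With pralatrexate against vehicle no gene of these 3 lists passed in the rank aggregation, in edgeR on summed reads or with DESeq2 p-values. At an unadjusted p under 0.05 there were 1, 0 and 2 lower and 1, 1 and 1 higher genes, where 3.93% of all genes were lower and 5.37% higher.

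Among 27 genes whose known roles lie in germ cells or lymphocytes, none passed for pralatrexate against vehicle, nor did any for vehicle against baseline, in the rank aggregation or with DESeq2 p-values. At an unadjusted p under 0.05 this list had 1 lower and 2 higher genes for vehicle against baseline, where 15.1% of all genes were lower and 7.86% higher, and 0 of either kind with pralatrexate against vehicle. By edgeR on summed reads, 6 were lower and 4 higher for vehicle against baseline, beside 21% and 14.4% of all genes, and 0 for pralatrexate against vehicle. The fold changes of its genes for vehicle against baseline ran from −0.34 to 0.33, so that CDK12 (−0.54) lay below all 27 and CDK13 (0.91) above all 27. For pralatrexate against baseline this list had 0 calls in the rank aggregation and with DESeq2 p-values, 0 lower and 3 higher at an unadjusted p under 0.05, beside 14.8% and 8.78% of all genes, and 7 lower and 7 higher by edgeR on summed reads, beside 22.8% and 16.1%.

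The library genes next to the pair on their chromosomes were read for comparison. Around CDK12 lay PIP4K2B, CCL2 and CDK5R1 on one side and ERBB2, COASY and WNK4 on the other, of which ERBB2 is 0.120 Mb and PIP4K2B 0.661 Mb away. For pralatrexate against vehicle these 6 ran from −0.08 for CDK5R1 to 0.03 for ERBB2. For vehicle against baseline ERBB2 was at −0.17 and PIP4K2B at 0.06, and COASY of coenzyme A synthesis fell by 1.50 (edgeR with rank aggregation, FDR 0.00603). Around CDK13 lay NME8, STK31 and PRPS1L1 on one side and STK17A and CAMK2B on the other, all at least 2.05 Mb away. These 5 ran from 0.01 for CAMK2B to 0.29 for STK31 for vehicle against baseline, and none passed (smallest FDR 0.556).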

How the data were processed

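RH4 cells carrying the Brunello kinome library gave 9 libraries of sgRNA reads, 3 per group. The deposited table holds raw read counts per sgRNA, made by the authors and not normalized, and the submitters' processing notes name Bowtie 1.0.0. The counting program is not given in the sources used here. Gene tables from the MAGeCK program hold the authors' own comparisons and were not used. Each group was taken from the sample titles.

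sgRNAs with a mean of at least 30 reads were kept (3145 of 3152, 99 of them non-targeting) and fitted with the quasi-likelihood method of edgeR 4.0.16 in R 4.3.3, on all 9 libraries at once with TMM factors and no covariate besides group. Dispersion was 0.0173 (coefficient of variation 13.2%). The chi-square per degree of freedom between libraries within groups was 10.7 to 25.7, so none was a copy of another. The fold change of a gene is the mean over its sgRNAs. SEs came from the log2(CPM + 0.5) values of the libraries, taken as unpaired. For genes other than the pair, one-sided sgRNA ranks were combined by robust rank aggregation (alpha 0.25) with an exact null in Python 3.11.15, adjusted by Benjamini-Hochberg over 763 genes at a threshold of 0.05. Rank aggregation follows the study's method, whose program was not installed. The code was tested on simulated data. As PCR copies count as separate reads, depth bounds counting error only, and the FDR covers a spread between libraries that may be technical.

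The pair and the gene lists (transcriptional CDKs, their cyclins and partners, other CDKs, RNA processing, DNA damage response, germline or lymphoid) were chosen with earlier results of these data known. Named genes are the pair, list genes past the threshold, every transcriptional CDK, the 5 genes most correlated with each member, and the 3 library genes nearest on each side. A few genes that this rule names are not reported here. Library genes were placed by symbol on GENCODE v44 (747 of 763 matched).

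Replicate numbers come from the titles. Over all sgRNAs, deviations from the group means correlated at 0.175, 0.198 and 0.188 between same-numbered pralatrexate and vehicle libraries. From these values the numbers were taken to pair the day 10 libraries. Differently numbered ones correlated at −0.127 to −0.0486, which follows largely from the positive values because deviations cancel within a group. Same-numbered libraries of the comparisons with baseline correlated at −0.0307 to 0.0706 and were not taken as paired. Alternatives covered the scaling, the read filter, DESeq2 1.42.0, the libraries in the fit, the replicate block, the summary over sgRNAs, and leaving out each library or sgRNA.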

Additional observations from a re-analysis of the deposited data

How the results depend on the processing

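No alternative reversed the direction of CDK12, of CDK13 or of their difference in the comparisons run. Scaling on the non-targeting sgRNAs shifted the median of all genes by −0.33 for vehicle against baseline and by −0.32 for pralatrexate against baseline, and with it CDK12 stood at −0.87 and −1.49 and CDK13 at 0.57 and 0.51. Without sgRNA 2, CDK12 stood at −0.64 for vehicle against baseline. Without sgRNA 3, it stood at −0.40 there, and the difference between the genes at −1.31 for vehicle and −1.72 for pralatrexate against baseline. CDK13 for pralatrexate against baseline was at 0.91 as the median of its sgRNAs and at 0.93 without sgRNA 4. Without the read filter CDK12 ranked 2 from the lowest for pralatrexate against vehicle, and CDK13 ranked highest against baseline in all fits across genes that were run.

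Leaving out 1 library at a time gave CDK12 values of −0.78 to −0.46 for pralatrexate against vehicle, −0.58 to −0.48 for vehicle against baseline and −1.31 to −0.998 for pralatrexate against baseline. CDK13 ran in these comparisons at −0.12 to −0.02, 0.85 to 0.96 and 0.81 to 0.87, and the difference at −0.68 to −0.42, −1.51 to −1.40 and −2.12 to −1.87. Of the 11 transcription kinases and partners, 0 to 1, 5 to 5 and 4 to 5 genes passed. In the fit of all libraries 0.524%, 6.68% and 7.21% of all genes fell by this rule. Reads summed per gene gave 10 of the 11 (8 lower, 2 higher) for pralatrexate against baseline, against 5 by rank aggregation. Of all genes, summed reads called 22.8% lower and 16.1% higher there, and rank aggregation 7.21% and 0.262%.

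With the replicate number as a block CDK12 stood at −0.66, −0.55 and −1.21, CDK13 at −0.07, 0.90 and 0.83 and the difference at −0.59, −1.46 and −2.04 in the same order of comparisons, and 1, 5 and 5 of the 11 genes passed, so the block moved no count of calls in that list.

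There were 3 libraries per group, with a coefficient of variation of 13.2% between them. For pralatrexate against vehicle 3 of the 4 CDK13 sgRNAs had overlapping libraries. CDK13 sgRNA 4, at −0.16, lay wholly below vehicle, as did 4.61% of all sgRNAs, while 4.36% lay wholly above. Values against baseline depend on which sgRNAs are taken as unchanged.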
